A study of Ovis aries with 15 samples.

Results

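The genes described here are 7 that mark vascular smooth muscle and pericytes, ACTA2, TAGLN, MYH11, CNN1, DES, PDGFRB and RGS5, followed through RNA-seq libraries of sheep kidney. They were taken by gene name from the gene table of the series, and all 7 were found among its 25592 genes. Their levels are given in FPKM (fragments scaled by transcript length and by library size), a unit that allows levels to be compared between genes, and their differences between groups were tested on the read counts.

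Smooth muscle cells form the wall of arteries and arterioles and contract when calcium activates myosin, which pulls on filaments of smooth muscle actin. Pericytes sit on capillaries inside the basement membrane and are recruited by platelet-derived growth factor from the endothelium, and in the glomerulus the related mesangial cells hold the capillary loops together. When kidney tissue scars, fibroblasts and pericytes can become myofibroblasts, which also make smooth muscle actin, so ACTA2 and TAGLN are not particular to vessels.

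The animals were males of a cross between Dorper and Small-tailed Han sheep, 4 months old and fed for 21 days, and 5 libraries from kidney were sequenced per group. The CON group received a total mixed ration. The AFB1 group received the same ration with aflatoxin B1, a toxin of Aspergillus moulds, at 500 µg/kg of dry matter (DM), and the AFB1_CUR group received that dose of aflatoxin B1 together with 800 mg/kg DM of curcumin, the yellow polyphenol of turmeric (CUR). No group received curcumin alone, so the effect of curcumin without the toxin was not measured. Sheep were housed 2 to a pen, and the labels do not say which libraries shared a pen.

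The libraries held 50255295 to 68747047 counted reads. The lowest count of any of the 7 genes in the 14 libraries compared was 268 reads, for which counting error alone is 6.11%, so spread between sheep and not depth limited the comparisons. In 14 libraries the defining kidney markers were high, with UMOD of the thick ascending limb at 126 to 1734 FPKM and PODXL of podocytes at 47.8 to 98.6 FPKM. AFB1 replicate 1 went against its label, with UMOD at 0.11 FPKM, PODXL at 1.11 FPKM and the liver gene ALB (albumin) at 25681 FPKM, against at most 23.9 FPKM in the other libraries. Results are therefore given for the other 14 libraries (5 CON, 4 AFB1 and 5 AFB1_CUR), with AFB1 replicate 1 apart.

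Over the 14 libraries the 7 genes spanned a wide range of levels, with ACTA2 and TAGLN always the highest. ACTA2, the actin of smooth muscle filaments, had the highest mean, 215 FPKM ± 67.7 (SD, n = 14), and ranked 221 of the 13162 genes with enough signal to be tested (at least 1 FPKM in at least 5 libraries). TAGLN, which encodes the actin-binding protein transgelin (SM22), followed at 109 FPKM ± 45.4. PDGFRB, the receptor through which pericytes and mesangial cells respond to platelet-derived growth factor B, averaged 29.9 FPKM ± 6.47.

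MYH11, the myosin heavy chain of smooth muscle and the most restricted marker of the contractile state, averaged 20.1 FPKM ± 5.68. DES, the intermediate filament protein desmin that links contractile units, averaged 13.4 FPKM ± 9.07, and CNN1, calponin, which binds actin and restrains myosin, averaged 11.9 FPKM ± 9.63. RGS5, a regulator that switches off G-protein signalling and is used as a pericyte marker, was the lowest at 3.85 FPKM ± 1.81 and ranked 8666 of 13162. All 7 genes passed the filter on low values.

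ACTA2 exceeded TAGLN in 14 of 14 libraries, by 1.48 to 2.74 times, and TAGLN exceeded PDGFRB in 14 of 14. The order was less firm lower down. PDGFRB exceeded MYH11 in 12 of 14 libraries, MYH11 exceeded DES in 13 and CNN1 exceeded RGS5 in 13. DES and CNN1 lay closest together, DES being the higher in 12 of 14 libraries with a ratio of 0.89 to 1.71. This difference was not tested. The variation between sheep was uneven: the coefficient of variation was 21.6% for PDGFRB, 28.2% for MYH11, 31.5% for ACTA2 and 41.7% for TAGLN, but 47.1% for RGS5, 67.7% for DES and 80.7% for CNN1. Without AFB1_CUR replicate 2 it was 35.3% for DES, 49.0% for CNN1 and 30.0% for TAGLN, and without AFB1 replicate 2 it was 31.3% for RGS5.

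The genes lie on 6 chromosomes. By the coordinates in the deposited table, ACTA2 is at chr22:10455006-10472320 on the minus strand, TAGLN at chr15:27621087-27626506 on the plus strand and MYH11 at chr24:14622727-14749438 on the minus strand. DES is at chr2:221345177-221352233 on the plus strand and RGS5 at chr1:114799592-114856775 on the minus strand. CNN1 (chr5:13613085-13620939, plus strand) and PDGFRB (chr5:59236254-59273883, minus strand) share chromosome 5. These positions are whole gene spans and are the same as those in the RefSeq table of assembly ARS-UI_Ramb_v3.0.

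**Figure D1:**
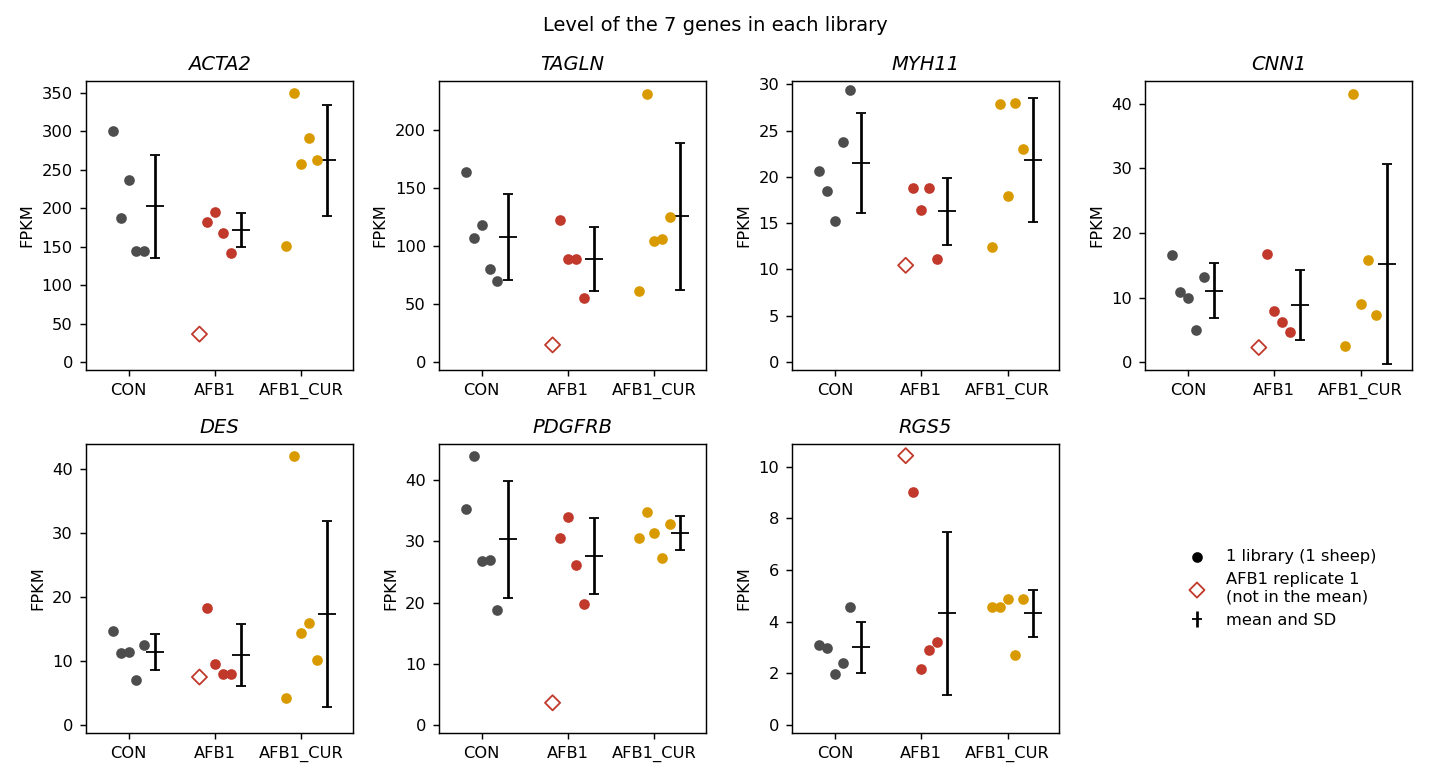
Level of each of the 7 genes in FPKM (vertical axes, linear and scaled per gene) in the CON, AFB1 and AFB1_CUR groups (horizontal axes). Each point is 1 library, the horizontal mark and bar are the mean and SD of 5 CON, 4 AFB1 and 5 AFB1_CUR libraries, and the open diamond is AFB1 replicate 1. The groups overlap for every gene, AFB1_CUR replicate 2 is the top point of all groups for ACTA2, TAGLN, DES and CNN1, and the diamond is the lowest point for ACTA2, TAGLN, MYH11, CNN1 and PDGFRB but the highest for RGS5.

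The comparison of the AFB1 group with the CON group asks whether the toxin shifted these genes. The screen used the study's thresholds, p under 0.05 (taken here before adjustment) and a fold change above 1.5, in edgeR's quasi-likelihood test. None of the 7 was called, against 1.76% of the 13162 genes tested (232 genes). None had an unadjusted p under 0.05 in edgeR either, against 5.04% of all genes, nor in DESeq2 or in limma on log2(FPKM + 1). In edgeR fitted on the 14 libraries and in limma no gene of the whole table passed Benjamini-Hochberg adjustment in this comparison, while 1 did in edgeR fitted on these groups alone and 17 did in DESeq2. Without CON replicate 3, MYH11 had an unadjusted p under 0.05 at a fold change under 1.5. Of the 7 estimates, 6 lay below 0 and 1 above, with a median log2 fold change of -0.25, beside 0.02 over all genes tested. With 1 library left out the median ran from -0.39 (without AFB1 replicate 2) to -0.07 (without CON replicate 1), and it was -0.16 without AFB1 replicate 5.

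MYH11 came nearest to a difference. It measured 20.6, 18.5, 15.3, 23.8 and 29.4 FPKM in CON replicates 1 to 5 and 18.8, 16.5, 18.8 and 11.1 FPKM in AFB1 replicates 2 to 5. The groups overlapped, with 3 CON sheep above every AFB1 sheep and AFB1 replicate 5 below all CON sheep. The log2 fold change was -0.42 (SE 0.24, edgeR p = 0.0959, adjusted p = 0.957), and the exact permutation test on log2(FPKM + 1) gave a 2-sided p = 0.159, where 0.0159 is the smallest that 4 against 5 libraries can reach. In bulk tissue a lower level from fewer smooth muscle cells and one from less RNA per cell cannot be told apart.

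ACTA2 measured 300.2, 188, 237, 144 and 144 FPKM in CON replicates 1 to 5 and 182, 195, 168 and 142 FPKM in AFB1 replicates 2 to 5. The AFB1 sheep lay inside or just under the CON range, whose width came from CON replicates 1 and 3. The log2 fold change of ACTA2 was -0.25 (SE 0.23), that of TAGLN -0.30 (SE 0.31), that of CNN1 -0.36 (SE 0.59), that of DES -0.09 (SE 0.45) and that of PDGFRB -0.15 (SE 0.19). In fold units, 2 standard errors on either side ran from 0.61 to 1.16 for ACTA2 and from 0.70 to 1.17 for PDGFRB, but from 0.34 to 1.77 for CNN1, so for CNN1 a fall to well under the CON level and a rise above it were within the error. These estimates leaned on single libraries. With 1 library left out, ACTA2 ran from -0.35 (without CON replicate 5) to -0.053 (without CON replicate 1), TAGLN from -0.45 (without AFB1 replicate 2) to -0.084 (without CON replicate 1), CNN1 from -0.80 (without AFB1 replicate 2) to -0.15 (without CON replicate 1) and PDGFRB from -0.27 (without CON replicate 5) to -0.012 (without CON replicate 2).

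RGS5 was the 1 gene with an estimate above 0. It stood at 3.10, 2.98, 1.98, 2.40 and 4.56 FPKM in the CON sheep and at 9.01, 2.17, 2.89 and 3.22 FPKM in AFB1 replicates 2 to 5. Only AFB1 replicate 2 lay outside the CON range. The log2 fold change was 0.49 (SE 0.35, edgeR adjusted p = 0.965), and without AFB1 replicate 2 it was -0.07.

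The comparison of AFB1_CUR with AFB1 asks what curcumin changed on top of the toxin. None of the 7 genes was called by edgeR, against 0.935% of genes tested (123 of 13162), though 6 of 7 estimates were above 0 with a median log2 fold change of 0.41, beside 0.00 over all genes. With 1 library left out the median ran from 0.13 (without AFB1_CUR replicate 2) to 0.57 (without AFB1_CUR replicate 1), and it was 0.27 without AFB1 replicate 5. ACTA2 alone had an unadjusted p under 0.05, which most fits leaving out a library of either group did not keep. This comparison and the one before share the AFB1 libraries, so low values in those libraries push the estimates down in the first and up in the second.

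ACTA2 measured 151, 349, 258, 290.5 and 263 FPKM in AFB1_CUR replicates 1 to 5. Thus 4 of the 5 AFB1_CUR sheep lay above all 4 AFB1 sheep (142 to 195 FPKM), and AFB1_CUR replicate 1 lay among them. The mean was 262 ± 72.2 FPKM (SD, n = 5) against 172 ± 22.6 (n = 4), and the log2 fold change was 0.54 (SE 0.23), a fold of 1.45 that stayed short of the screen. In edgeR p was 0.0385 (adjusted p = 0.99999), and the exact permutation test gave p = 0.0635 (2-sided, smallest possible 0.0159). Of all 13162 genes, 303 (2.3%) had an unadjusted edgeR p under 0.05.

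The call for ACTA2 depended on single libraries and on the scaling. Without AFB1_CUR replicate 1 the log2 fold change was 0.67 and with AFB1 replicate 1 included it was 0.74, and in both cases it passed the screen. It also passed when libraries were scaled by their totals alone, at 0.61. Its unadjusted p was no longer under 0.05 without AFB1_CUR replicate 2, 3, 4 or 5, without AFB1 replicate 2, 4 or 5, or with the replicate number as a block. The log2 fold change itself ran from 0.47 to 0.74 over all alternatives. The muscle actins are near-identical in sequence, so reads may be split among ACTA2 and its paralogs, which was not tested. The table listed ACTG2 of enteric smooth muscle at 0.79 to 7.40 FPKM, ACTA1 of skeletal muscle at no more than 1.05 FPKM and ACTC1 of heart muscle at no more than 1.88 FPKM.

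DES and CNN1 had the largest estimates in this comparison and the largest errors. CNN1 measured 2.57, 41.4, 8.94, 15.8 and 7.23 FPKM in AFB1_CUR replicates 1 to 5, against 16.8, 7.90, 6.24 and 4.71 in AFB1 replicates 2 to 5. The AFB1_CUR group held the lowest and the highest value of all 14 libraries, so the AFB1 values fell inside its range. The log2 fold change was 0.67 (SE 0.59, edgeR adjusted p = 0.99999), and without AFB1_CUR replicate 2 it was -0.03.

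DES measured 4.16, 42.0, 14.3, 16.0 and 10.1 FPKM in the AFB1_CUR sheep and 18.2, 9.49, 8.03 and 8.02 FPKM in AFB1 replicates 2 to 5. Its log2 fold change was 0.56 (SE 0.45), and it was 0.03 without AFB1_CUR replicate 2 and passed the screen at 0.81 without AFB1_CUR replicate 1. The same 2 sheep thus stood at the ends of the group for both genes.

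TAGLN measured 61.6, 231, 104, 106 and 125 FPKM in AFB1_CUR and 123, 89.1, 89.0 and 55.3 FPKM in AFB1 replicates 2 to 5, with a log2 fold change of 0.41 (SE 0.31). The estimate for MYH11 was 0.36 (SE 0.24), with 12.4, 27.8, 17.9, 28.0 and 23.0 FPKM in AFB1_CUR. Both groups overlapped for both genes. Leaving out 1 library, TAGLN ran from 0.15 (without AFB1_CUR replicate 2) to 0.57 (without AFB1_CUR replicate 1) and was 0.27 without AFB1 replicate 5, and MYH11 ran from 0.22 (without AFB1_CUR replicate 4) to 0.49. MYH11 and DES had an unadjusted p under 0.05 without AFB1_CUR replicate 1, where DES passed the screen. The pericyte genes stayed nearest to 0, PDGFRB at 0.13 (SE 0.19), or 0.028 without AFB1 replicate 5, and RGS5 at -0.04 (SE 0.35).

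PDGFRB was the steadiest of the 7 within AFB1_CUR, at 30.6, 34.8, 31.3, 27.2 and 32.8 FPKM, a coefficient of variation of 9.0%. In the CON group it ran from 18.9 to 44.0 FPKM (31.5%) and in AFB1 replicates 2 to 5 from 19.7 to 34.0 FPKM (22.3%). The difference in spread was not tested. For PDGFRB, 2 standard errors around the AFB1_CUR to AFB1 ratio ran from 0.84 to 1.41 fold, the narrowest interval of the 7 genes in this comparison.

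Against CON, the AFB1_CUR group showed 5 estimates above 0 and 2 below, with a median log2 fold change of 0.29 beside -0.00 over all genes. None of the 7 was called by edgeR, DESeq2 or limma, against 1.63% of genes tested in edgeR (214 of 13162), and none had an unadjusted p under 0.05 in any of these tests, against 5.49% in edgeR. The estimates were 0.29 for ACTA2 (SE 0.22), 0.11 for TAGLN (SE 0.29), -0.07 for MYH11 (SE 0.22), 0.31 for CNN1 (SE 0.55), 0.47 for DES (SE 0.42), -0.02 for PDGFRB (SE 0.17) and 0.45 for RGS5 (SE 0.33). The edgeR adjusted p-values ran from 0.839 to 0.990. Leaving out 1 library, ACTA2 ran from 0.19 (without CON replicate 5) to 0.48 (without CON replicate 1), and in the latter fit its unadjusted p was under 0.05.

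RGS5 in this comparison stood at 4.56, 4.57, 4.87, 2.70 and 4.89 FPKM in AFB1_CUR. All AFB1_CUR sheep but replicate 4 lay at or above 4.56 FPKM, a level reached by CON replicate 5 alone in its group. The exact permutation test gave p = 0.103 (2-sided, smallest possible 0.00794 for 5 against 5). Without AFB1_CUR replicate 2, 2 of the 7 estimates against CON were above 0 and 5 below, with a median of -0.06, so the balance of signs in this comparison rested on that sheep. The median was 0.13 without CON replicate 4, 0.19 without CON replicate 5 and 0.47 without CON replicate 1. Across the 3 comparisons no gene of the 7 had groups without overlap in FPKM, against 1.54% of genes tested for AFB1 and CON, 0.676% for AFB1_CUR and AFB1 and 0.722% for AFB1_CUR and CON.

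**Figure D2:**
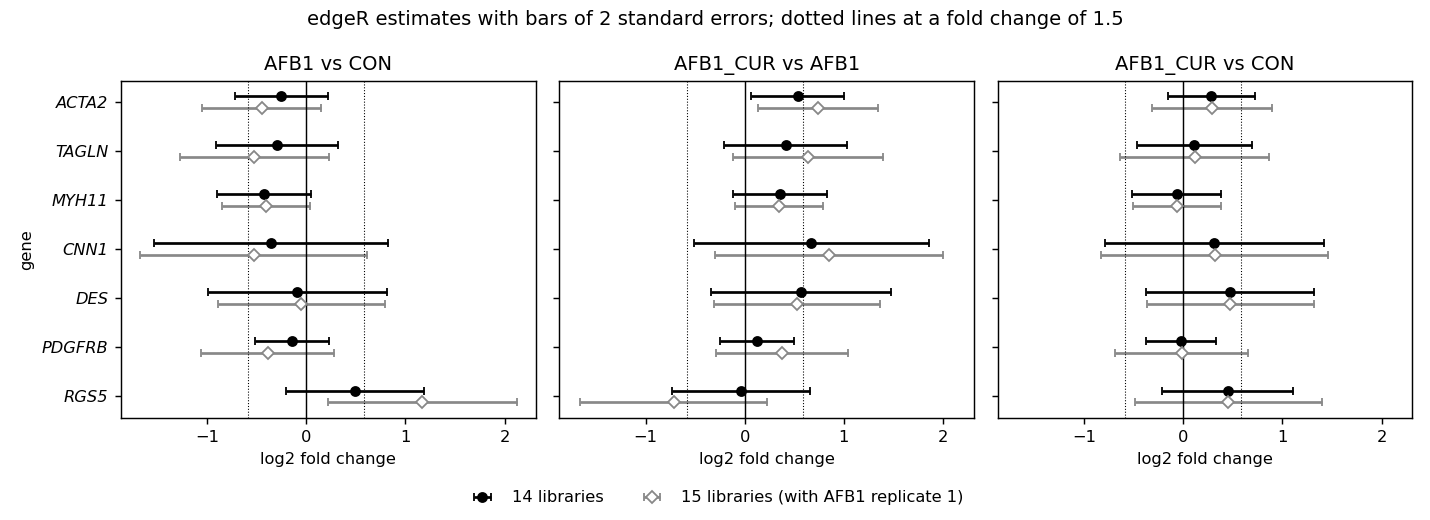
Log2 fold change of the 7 genes (horizontal axes) in the comparisons AFB1 vs CON, AFB1_CUR vs AFB1 and AFB1_CUR vs CON, as estimated by edgeR, with bars of 2 standard errors and dotted lines at a fold change of 1.5. Black circles are the 14 libraries and open diamonds all 15. Bars cross 0 except for ACTA2 in AFB1_CUR vs AFB1 and, with AFB1 replicate 1 included, RGS5 in AFB1 vs CON, and the bars of CNN1 and DES are the widest in the circles.

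Including AFB1 replicate 1 moved the estimates of AFB1 vs CON to -0.45 for ACTA2, -0.52 for TAGLN, -0.53 for CNN1 and -0.39 for PDGFRB, none of them called, and that of RGS5 to 1.17 (SE 0.48, edgeR adjusted p = 0.596), which passed the screen. The share of all genes called rose to 4.84% in AFB1 vs CON and to 3.98% in AFB1_CUR vs AFB1, where ACTA2 then passed the screen, and was 0.993% in AFB1_CUR vs CON.

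Differences between sheep were shared by the contractile genes. Among the 10 pairs of ACTA2, TAGLN, MYH11, CNN1 and DES, the Pearson r of log2(FPKM + 1) over the 14 libraries had a median of 0.71 and ran from 0.41 to 0.97. DES and CNN1 were the closest pair at 0.97, ACTA2 and TAGLN followed at 0.87, and MYH11 was the loosest, at 0.41 with ACTA2 and 0.49 with TAGLN. With the group means taken out the median was 0.74.

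For pairs with the pericyte markers the median r was lower. The 11 pairs that include PDGFRB or RGS5 had a median r of 0.23, from 0.02 to 0.60, the highest being PDGFRB with TAGLN. PDGFRB and RGS5 differed in this: r was 0.60 for PDGFRB with TAGLN and 0.51 with ACTA2, above the 0.49 and 0.41 of MYH11 with the same genes, while the highest r of RGS5 was 0.30, with DES. With the summed level of the further contractile and cytoskeletal genes r was 0.68 for PDGFRB, 0.48 for MYH11 and 0.069 for RGS5, and with that of the further pericyte and mesangial genes it was 0.81, 0.31 and 0.25. With the summed endothelial markers it was 0.72, 0.23 and 0.019, and PDGFRB had an r of 0.51 with the summed podocyte markers. A high r of PDGFRB was thus not particular to the contractile and pericyte lists. PDGFRB and RGS5, both used to mark pericytes, had an r of 0.03 with each other. The 14 points share a scale on which each library is divided by its own total, and they come from 14 pieces of tissue, so r is given as a description.

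Part of the shared pattern lay in AFB1_CUR replicate 2, and with that library left out, an alternative chosen after the data were seen, the contractile pairs had a median r of 0.59 and the other pairs one of 0.12. This sheep held the highest value of 4 of the 7 genes among the 14. Its CNN1 was 4.63 times the median of the other 13 libraries, its DES 3.73 times, its TAGLN 2.21 times and its ACTA2 1.86 times, but its PDGFRB 1.14 times. At the other end, AFB1 replicate 5 held the lowest ACTA2, TAGLN and MYH11, and also the lowest summed level of the endothelial, podocyte, pericyte and mesangial, PDGF, regulator and further contractile lists, and AFB1_CUR replicate 1 the lowest DES (0.36 times the median of the others) and CNN1 (0.26 times).

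**Figure D3:**
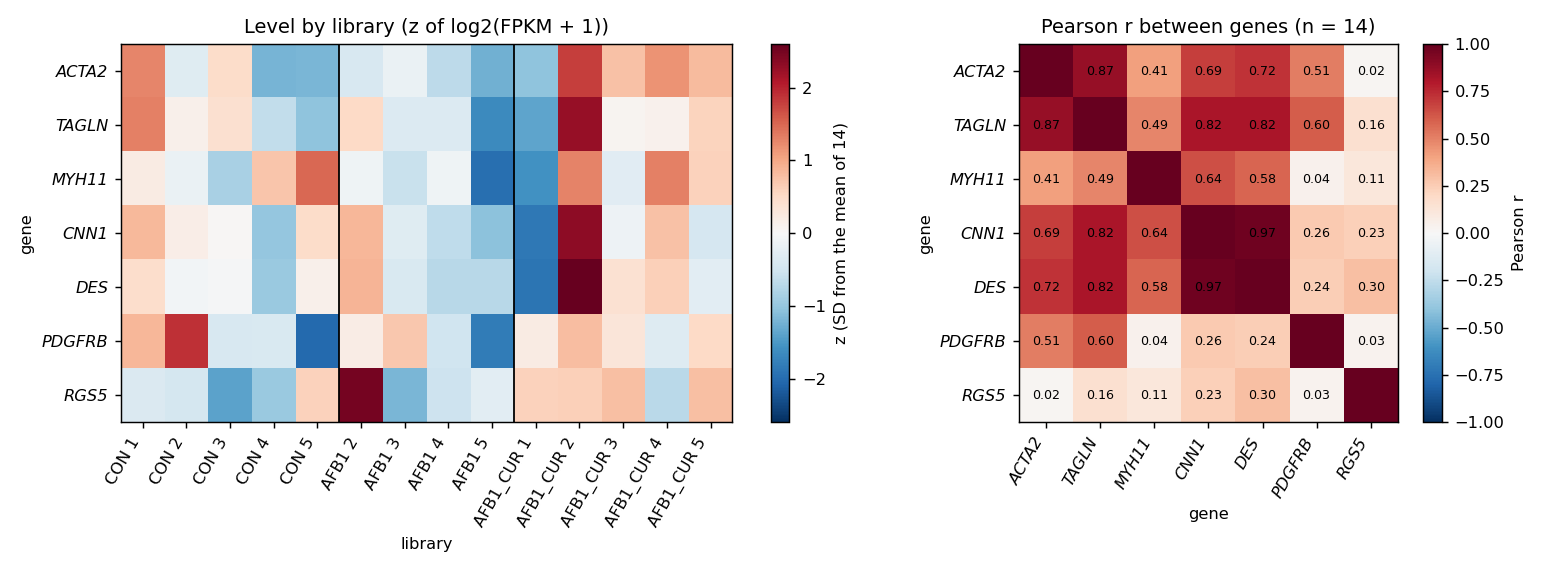
Left, the level of each gene (rows) in each of the 14 libraries (columns, grouped by CON, AFB1 and AFB1_CUR), as z, the distance from the mean of 14 in SD of log2(FPKM + 1). Right, Pearson r between each pair of genes over the same 14 libraries. AFB1_CUR replicate 2 is dark red for ACTA2, TAGLN, CNN1 and DES, AFB1 replicate 5 and AFB1_CUR replicate 1 are blue for the contractile genes, and the RGS5 row is the palest in the matrix of r, which runs from 0.02 to 0.97.

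Markers of other cells moved with the same libraries. The summed level of 9 fibroblast genes, collagens and other matrix genes among them, ran from 103 to 513 FPKM over the 14 libraries and was highest in AFB1_CUR replicate 2. That library also had the lowest summed level of 8 proximal tubule markers, 1990 FPKM, against 6376 FPKM in AFB1 replicate 5, which was the highest. Over the 14 libraries, r between the proximal tubule level and the gene was -0.74 for TAGLN, -0.66 for DES, -0.58 for CNN1, -0.52 for ACTA2, -0.22 for MYH11, -0.46 for PDGFRB and -0.39 for RGS5, while r with the fibroblast level was 0.77 for TAGLN, 0.76 for DES, 0.71 for CNN1, 0.62 for ACTA2, 0.51 for MYH11, 0.59 for PDGFRB and 0.46 for RGS5. With the summed hepatocyte markers r ran from -0.76 for TAGLN and -0.66 for ACTA2 to -0.18 for RGS5. In the 14 libraries that sum was mainly SERPINA1, F2 and TF, with means of 111, 60.3 and 48.1 FPKM. ALB averaged 3.57 FPKM and AHSG 0.59 FPKM, so the sum is not a measure of liver cells there. The part of tissue make-up in the differences between libraries was not tested.

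By group, the proximal tubule sum ran from 3748 to 6292 FPKM in CON, from 2544 to 6376 in AFB1 replicates 2 to 5 and from 1990 to 5658 in AFB1_CUR. None of the 8 proximal tubule markers tested was called in AFB1 vs CON, AFB1_CUR vs AFB1 or AFB1_CUR vs CON, against 1.76%, 0.935% and 1.63% of all genes. Still, 7 of 8 estimates in AFB1 vs CON (median log2 fold change -0.34) and 8 of 8 in AFB1_CUR vs CON (median -0.27) lay below 0, where 53.4% and 49.5% of all genes tested lay above 0. In AFB1_CUR vs AFB1 4 of 8 lay below 0, with a median of 0.04. Among the leading proximal tubule genes was SLC5A12, a lactate transporter, at 164 to 690.4 FPKM. Of 8 fibroblast genes tested, LUM, the collagen-binding proteoglycan lumican, was called higher in AFB1_CUR than in AFB1 (log2 fold change 0.73, SE 0.31, edgeR adjusted p = 0.99999), against 0.41% of all genes called higher. All 8 fibroblast genes had estimates above 0 in that comparison, with a median log2 fold change of 0.64, beside 0.41 for the 7 genes and 0.00 over all genes, and all 8 were above 0 in AFB1_CUR vs CON (median 0.54), while 6 of 8 were below 0 in AFB1 vs CON (median -0.10). The call of LUM was lost without AFB1_CUR replicate 1 or 5, without AFB1 replicate 4 or 5 and with a replicate block. In those fits its log2 fold change ran from 0.63 (without AFB1 replicate 5) to 0.71 (without AFB1_CUR replicate 1). COL1A2 of type I collagen was the second by level in that list, at 13.5 to 128 FPKM.

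Other muscle was close to absent. The summed level of 10 striated muscle markers was 1.66 to 4.94 FPKM, led by TNNT3 at 0.23 to 2.73 FPKM and ACTN2 at 0.38 to 1.45 FPKM, and that of 6 urothelial markers, which would show tissue from the renal pelvis, was 0.17 to 4.46 FPKM, led by UPK1A at no more than 3.44 FPKM and UPK1B at no more than 2.18 FPKM. In each of these lists 1 gene was tested and 0 were called. Striated muscle also makes DES, and its part in the DES level was not tested. The striated sum was 3.55 FPKM in AFB1_CUR replicate 1, the library with the lowest DES (4.16 FPKM). It was 3.23 FPKM in AFB1_CUR replicate 2, the library with the highest DES (42.0 FPKM). In AFB1 replicate 2, where DES and RGS5 were the highest of the 4 AFB1 libraries compared, the urothelial sum was the highest of the 14 at 4.46 FPKM.

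The genes closest in profile to each member, by r of log2(FPKM + 1) over the 14 libraries among 13161 other genes, were as follows. For TAGLN they were FLNA, the actin cross-linker filamin A (r = 0.98), MMP23B and a gene described as a myotonin-protein kinase, LOC121816535. For ACTA2 they were CPXM1 (r = 0.89), SRF, the serum response factor that binds smooth muscle promoters (r = 0.87), and FLNA (r = 0.87). For DES they were CNN1, NAT10 and ERGIC1, and for CNN1 they were DES, NAT10 and ERGIC1.

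PDGFRB was nearest to ENG, an endothelial coreceptor for transforming growth factor beta (r = 0.93), then CHPF2 and TBKBP1. MYH11 was nearest to the ribosomal protein gene RPS18 (r = 0.89), NDN and BTF3, and RGS5 to LOC101120834, described as a cytochrome P450 2U1 (r = 0.87), SMARCA2 and GAB1. For the mean of the 7 genes on a z scale, the 10 nearest included TPM1 (tropomyosin, r = 0.96), COL16A1, FBLN1, ACTN1, FLNA, ELN (elastin), CHTF18, MMP14 and CBX6. With so many genes and 14 points, high r values arise for some genes in any profile, and nothing of shared control is read from them.

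**Figure D4:**
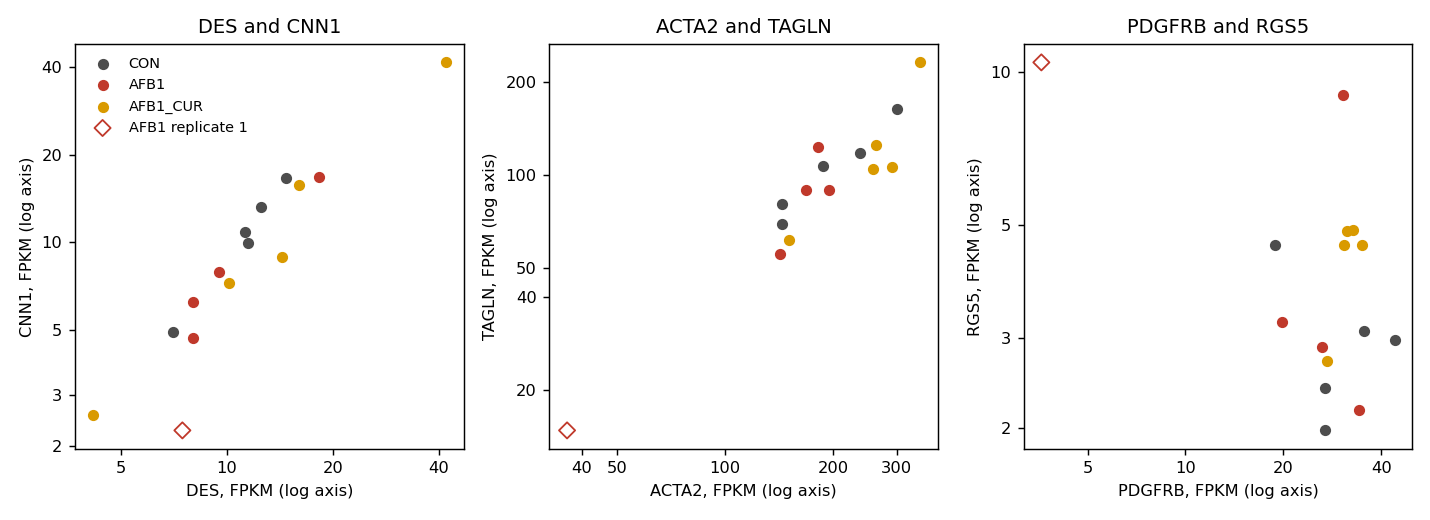
FPKM of 3 pairs of genes, DES and CNN1, ACTA2 and TAGLN, and PDGFRB and RGS5, each point 1 library, on log axes. Grey, red and yellow points are CON, AFB1 and AFB1_CUR, and the open diamond is AFB1 replicate 1. DES and CNN1 (r = 0.97) and ACTA2 and TAGLN (r = 0.87) lie along a line, PDGFRB and RGS5 (r = 0.03) do not, and the diamond is in the upper left of the last panel.

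In AFB1 replicate 1, the library with liver transcripts, 5 of the 7 genes lay below all 14 other libraries, 1 inside their range and 1 above. The share of all genes outside that range in this library was not counted. PDGFRB was at 3.61 FPKM, 12% of the mean of the 14, TAGLN at 14.8 FPKM (13.7%), ACTA2 at 36.4 FPKM (16.9%) and CNN1 at 2.27 FPKM (19.0%). MYH11 at 10.4 FPKM was just under the lowest kidney value of 11.1, and DES at 7.48 FPKM lay within the kidney range.

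RGS5, at 10.4 FPKM, was 2.71 times the kidney mean and the highest of all 15 libraries, the next being AFB1 replicate 2 at 9.01 FPKM. The order of levels also changed, with MYH11 above PDGFRB and RGS5 above CNN1. Of 18 further contractile and cytoskeletal genes 13 were below the kidney range, 4 inside and 1 above. The 1 above was LMOD1, leiomodin, at 4.46 FPKM against 0.59 to 1.51, singled out after its values were seen. Of 14 further pericyte and mesangial genes 9 were below the kidney range, 4 inside and 1 above. The 1 above was AOC3, at 21.4 FPKM against 5.34 to 16.5, likewise singled out after its values were seen. The PDGF ligands and PDGFRA, 5 genes in all, were below the kidney range. Hepatic stellate cells are the pericytes of the liver, and 4 of their 5 markers were above the kidney range in this library. COLEC11, a collectin, was at 62.1 FPKM against 0.27 to 1.33, while ECM1, the 1 marker of the list that passed the filter and not called in any comparison, was below it at 9.14 FPKM against 11.6 to 31.3. With 1 library of this kind there is no replicate check on any of these values. The share of all genes outside the kidney range was not counted, so none of these counts has a background beside it.

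The other genes of the same pathways were examined as lists. Of 18 further contractile and cytoskeletal genes 16 were tested, and 0 were called by edgeR in any of the 3 comparisons. Of all genes, 1.76% were called in AFB1 vs CON, 0.935% in AFB1_CUR vs AFB1 and 1.63% in AFB1_CUR vs CON. In lists this short, 0 calls lay near those shares. Their median log2 fold change was -0.17 in AFB1 vs CON (13 of 16 below 0), 0.20 in AFB1_CUR vs AFB1 (14 of 16 above 0) and 0.09 in AFB1_CUR vs CON, beside 0.02, 0.00 and -0.00 over all genes. The signs followed those of the 7 genes in the first 2 comparisons, which share the AFB1 libraries. The highest in level were MYL9, the regulatory light chain of smooth muscle myosin, at 160 to 355 FPKM, and FLNA at 29.1 to 79.5 FPKM.

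Transcription regulators of smooth muscle had 7 of 11 genes tested and 0 called. HEYL, a target of Notch signalling in mural cells, measured 7.92 to 22.4 FPKM and RBPMS, a splicing regulator of smooth muscle, 6.98 to 11.4 FPKM. MYOCD, the cofactor that drives contractile genes through SRF, was below the filter at 0.29 to 1.13 FPKM. Among 14 further pericyte and mesangial genes, 12 were tested and 0 were called, with medians of 0.10, 0.04 and 0.29 in the order above. MCAM, a mural and endothelial adhesion molecule, measured 10.8 to 21.1 FPKM, and AOC3, an amine oxidase of vascular smooth muscle, 5.34 to 16.5 FPKM.

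The PDGF ligands and the related receptor PDGFRA formed a further list. All 5 of its genes (PDGFA, PDGFB, PDGFC, PDGFD and PDGFRA) were tested and 0 were called, with medians of -0.00, 0.08 and 0.02. The estimates farthest from 0 were those of PDGFRA, at 0.58 (SE 0.30) in AFB1_CUR vs CON and 0.49 (SE 0.32) in AFB1_CUR vs AFB1, and of PDGFD, at 0.49 (SE 0.25) in AFB1_CUR vs CON. PDGFA measured 10.8 to 16.0 FPKM, PDGFB, the ligand that endothelium sends to pericytes, 5.28 to 13.7 FPKM and PDGFRA 4.88 to 23.4 FPKM. Of 6 other small RGS genes 4 were tested and 0 called, RGS2 and RGS1 being the highest at 4.22 to 16.0 and 1.45 to 16.8 FPKM. Of 14 paralogs of the 7 genes 11 were tested and 0 called, led by the cytoplasmic actins ACTG1 (372 to 719 FPKM) and ACTB (243 to 623 FPKM).

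The one list with several calls held immediate early genes that SRF switches on and CCN matrix genes, among which CCN2 (35.2 to 121 FPKM) and JUNB (12.4 to 44.2 FPKM) were the highest and were not called. This list was chosen with earlier results of these data known, so the shares called in it are no independent support. In AFB1 vs CON, 4 of 8 tested were called lower, against 1.11% of all genes. They were CCN1 (log2 fold change -2.10, SE 0.45), EGR1 (-2.10, SE 0.60), FOS (-2.18, SE 0.75) and ATF3 (-0.81, SE 0.29), with edgeR adjusted p-values of 0.607 to 0.957. In DESeq2 the adjusted p of CCN1 was 0.00207, and those of the other 3 were 0.0634 to 0.488. In AFB1_CUR vs CON, CCN1 (-1.24, SE 0.40), EGR1 (-1.27, SE 0.54) and ATF3 (-0.72, SE 0.27) were called lower, against 0.577% of all genes, and in AFB1_CUR vs AFB1 none was called.

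CON values of these genes were widely spread, EGR1 from 11.8 to 80.2 FPKM against 5.88 to 12.5 in AFB1 replicates 2 to 5. Without CON replicate 3 the calls of ATF3 in AFB1 vs CON (-0.44) and AFB1_CUR vs CON (-0.35), of FOS in AFB1 vs CON (-1.30) and of EGR1 in AFB1_CUR vs CON (-0.77) were lost. That of EGR1 was also lost without CON replicate 2, without AFB1_CUR replicate 3, 4 or 5, in limma and in the fit of AFB1_CUR and CON alone. Its log2 fold change in those fits ran from -1.27 to -0.97. The calls of ATF3 were lost in limma on log2(FPKM + 1) too, and in AFB1 vs CON ATF3 was not called with AFB1 replicate 1 included (-0.56). The contractile members of the set that SRF also controls, ACTA2, TAGLN, MYH11 and CNN1, had no call in either comparison. SRF itself measured 6.87 to 12.2 FPKM.

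Among the cell type lists, 0 of 9 endothelial markers (PLVAP at 124 to 208 FPKM and PECAM1 at 42.1 to 74.2 FPKM the highest), 0 of 5 podocyte markers and 0 of 8 markers of the loop of Henle and collecting duct (UMOD and AQP2 the highest) were called in any comparison. The endothelial sum ran from 242 to 392.5 FPKM and the podocyte sum from 103 to 241 FPKM in the 14 libraries. Of 8 hepatocyte markers tested, ALB was called lower in AFB1_CUR than in AFB1 (log2 fold change -3.75, SE 1.34, edgeR adjusted p = 0.99999), against 0.524% of all genes called lower, at 0 to 1.08 FPKM against 0.04 to 23.9 FPKM. The call was lost without AFB1 replicate 2, with a replicate block and in limma, and with AFB1 replicate 1 included the log2 fold change was -13.70. The leading hepatocyte markers, SERPINA1 (21.6 to 263 FPKM) and F2 (32.0 to 114 FPKM), were not called.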

How the data were processed

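Kidney RNA of 15 sheep was sequenced, 5 per group, and groups were taken from the sample titles because the treatment field of the labels numbers upward from sample to sample. The authors deposited a table of raw read counts per gene and a table of FPKM values per gene. Per the submitters' processing notes, reads were trimmed with cutadapt 1.9, aligned with HISAT2 2.2.1 and quantified with StringTie 2.1.6, and edgeR and DESeq2 are also named. For the genome build and for the strand setting of the counting, these sources give nothing. The deposited coordinates had the same start and end as RefSeq ARS-UI_Ramb_v3.0 for 24848 of 24947 genes matched by symbol (99.6%).

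The counts were tested with edgeR 4.0.16 in R 4.3.3 (TMM scaling, quasi-likelihood test, 1 fit of 14 libraries in 3 groups, Benjamini-Hochberg adjustment over 13162 genes with at least 1 FPKM in at least 5 libraries). Genes were called by the thresholds of the study, a fold change above 1.5 and p under 0.05. The study does not say whether p was adjusted, and it was taken here before adjustment. AFB1 replicate 1 was left out because of its liver transcripts. Single genes were also tested by an exact permutation test on log2(FPKM + 1). Limma 3.58.1, DESeq2 1.42.0, other filters, scalings and pseudocounts, a replicate block and each library left out were the alternatives. Scripts were tested on simulated data. The 7 genes and all lists were chosen with earlier results of these data known. Named from each list were the genes called and the 2 with the highest mean FPKM, and beside these PDGFB, PDGFD, ACTG2, ACTA1, ACTC1, MYOCD, SRF and LMOD1 were named after their values were seen. Nearest genes were the 3 with the highest r for each member and the 10 for their mean. Each library is a separate animal per the study's methods. A few genes that this rule selects are not reported here. No sequences of these genes were used here.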

Additional observations from a re-analysis of the deposited data

Results flagged for a closer look

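Single sheep stood far from the rest of their group in 4 of 28 sets of values examined (7 genes in CON, AFB1_CUR and the AFB1 group with and without replicate 1), by the gap to the nearest sheep set against the range of the group. For independent sets of normally spread values, chance flags about 1 in 20. These sets hold raw FPKM of correlated genes and the 2 AFB1 sets overlap, so that rate is only a rough guide. DES in AFB1 replicate 2, at 18.2 FPKM, was far above the next AFB1 library at 9.49 FPKM, and this held with and without AFB1 replicate 1. RGS5 in the same sheep, at 9.01 FPKM, was far above the next of the 4 libraries compared at 3.22 FPKM, but with AFB1 replicate 1 (10.4 FPKM) in the group it was not. RGS5 in AFB1_CUR replicate 4, at 2.70 FPKM, was far below the other AFB1_CUR libraries, of which the nearest stood at 4.56 FPKM.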

How the results depend on the processing

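Of 483 values of the 7 genes under alternative settings, 451 kept their direction and their side of the screen, 27 changed sign and 5 passed the screen where the 14-library edgeR value did not. The cause of each change was not tested. The number of genes called moved to 639, 525 and 131 (AFB1 vs CON, AFB1_CUR vs AFB1, AFB1_CUR vs CON) with AFB1 replicate 1, to 867, 707 and 928 without a filter on FPKM, where more genes were tested, and to 105, 81 and 80 in limma on log2(FPKM + 1). Leaving out 1 library gave 204 to 454 (highest without AFB1 replicate 5), 119 to 261 (without AFB1 replicate 2, with 221 without AFB1 replicate 5 and 193 without AFB1_CUR replicate 2) and 115 to 305 genes (lowest without AFB1_CUR replicate 2). The share of called genes that were higher was 37.1%, 43.9% and 64.5%. It was 79.2%, 14.9% and 75.6% with AFB1 replicate 1, 51.3% in AFB1 vs CON without a filter, 59.6% and 76.0% in the last 2 comparisons with library totals, and 59.3% in AFB1_CUR vs AFB1 in limma with a pseudocount of 0.1. Adjusted p-values under 0.05 were reached by 17, 3 and 1 genes in DESeq2, none of the 7 among them, and by 1 gene in AFB1 vs CON fitted on those groups alone. Same-numbered libraries had correlations of -0.28 to 0.55, with group means taken out. Libraries of different numbers were not set beside them, so whether the number stands for a pairing was not tested. With the number as a replicate block the calls were 228, 150 and 282, 0 of the 7 genes was called, and signs changed for RGS5 in AFB1_CUR vs AFB1 (0.061) and, in AFB1_CUR vs CON, for PDGFRB (0.021) and CNN1 (-0.056). In AFB1_CUR vs AFB1, RGS5 was 0.13 and 0.19 in limma (pseudocounts 1 and 0.1) and 0.13 in the permutation test. In AFB1_CUR vs CON, PDGFRB was 0.035 with library totals, 0.094 and 0.098 in limma and 0.094 in the permutation test, MYH11 was 0.014 with library totals, and CNN1 was -0.013 in limma with a pseudocount of 0.1. With 1 library left out, values that changed sign ran as follows. In AFB1 vs CON, DES ran from -0.39 to 0.031 (above 0 without CON replicate 1 or AFB1 replicate 4) and RGS5 from -0.075 (without AFB1 replicate 2) to 0.71. In AFB1_CUR vs AFB1, RGS5 ran from -0.26 to 0.53 (above 0 without AFB1 replicate 2 or AFB1_CUR replicate 4) and CNN1 from -0.030 (without AFB1_CUR replicate 2) to 1.11. In AFB1_CUR vs CON, leaving out AFB1_CUR replicate 2 gave the lowest values of TAGLN (-0.15 to 0.33, also below 0 without CON replicate 5), DES (-0.059 to 0.72) and CNN1 (-0.39 to 0.58), while PDGFRB ran from -0.15 to 0.11 (above 0 without CON replicates 1 or 2 or AFB1_CUR replicate 4) and MYH11 from -0.20 to 0.073 (above 0 without CON replicate 5 or AFB1_CUR replicate 1). The median r of the pairs with PDGFRB or RGS5 was 0.11 with AFB1 replicate 1. Of the calls among list genes, those of CCN1 and EGR1 in AFB1 vs CON held in 22 of 22 alternatives, as did that of CCN1 in AFB1_CUR vs CON, that of FOS in 21, those of ATF3 in 19 in either comparison, that of ALB in 18, that of LUM in 17 and that of EGR1 in AFB1_CUR vs CON in 14.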
